A study of Homo sapiens with 8 samples.

Results

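The genes described here are 48 genes of squamous epithelial differentiation, from basal layer genes to the proteins of the cornified envelope. They were measured in 8 xenograft tumours grown in nude mice, which lack T cells, from SK-OV-3, an established line of human ovarian carcinoma. In 4 tumours the cells carried pIND_BORA, a vector that overexpresses BORA, an activator of the mitotic kinase PLK1, and in the other 4 they carried the empty vector pIND_EV (EV). Each tumour had 1 expression array. No label ties a tumour to its own mouse or to its own transfected culture, so the p-values measure only the spread between these samples. Of the 48 genes 45 were measured, each by 1 transcript cluster (the probes that report a gene), among 17709 clusters with a gene symbol. TP63, SERPINB2 and CDSN are not analysed here. The genes were selected on their values in these arrays, since many of them were high in a single tumour, EV replicate 1. The values of that tumour are therefore given as a description with no test, and tests are confined to BORA tumours against EV replicates 2 to 4.

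A stratified squamous epithelium renews itself from a basal layer, whose daughter cells move up through spinous and granular layers and die as flattened, cross-linked squames. Basal cells are held together by one set of desmosomal cadherins and upper cells by another. In the granular layer, transglutaminases join involucrin, small proline-rich proteins and other precursors into an insoluble cornified envelope under the plasma membrane, and kallikreins and their inhibitors set the rate at which squames are shed. None of these programmes is typical of an ovarian carcinoma line. The layer given to each gene below was assigned from general knowledge and was not measured here. Some of the genes, S100A8 and S100A9 among them, are made by stressed keratinocytes and need not mark that layer in resting epidermis. Medians by layer depend on these assignments. The genes with no fixed layer are grouped apart.

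Signals are the deposited values, read as log2 units. A signal was called above background when it lay beyond the 95th percentile of its own array's negative controls. That limit was 8.24 in EV replicate 1, 7.62 to 8.13 in BORA tumours and 7.82 to 8.01 in EV replicates 2 to 4. EV replicate 1 correlated with the other 7 tumours at 0.943 to 0.954 over all clusters, and those 7 with each other at 0.981 to 0.992, so results that rest on this tumour are given with and without it. BORA itself was at 12.55 to 13.00 in BORA tumours and at 6.15 to 7.32 in the 4 EV tumours. Of 7 measured markers of SK-OV-3 and ovarian carcinoma, PAX8 and EPCAM were above background in all 8 tumours and WT1, MUC16 and SOX17 in 0. PAX8 was at 12.03 in EV replicate 1, against 12.95 to 14.32 in the other 7, and EPCAM was at 13.52, against 13.62 to 14.76. CDH1 was at 12.47 in EV replicate 1, against 6.29 to 10.36, and MSLN at 6.57, below background, against 5.50 to 11.56. The label places the array of EV replicate 1 in the EV group. The labels do not settle whether it holds that tumour, so EV replicate 1 means the array so labelled throughout. In bulk tumours, fewer cells of a type and less RNA per cell cannot be told apart.

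Over the 45 measured genes, EV replicate 1 exceeded each of the other 7 tumours at 40, where this was so at 20.6% of all clusters. It was more than 2 log2 units above their mean at 33, against 2.04% of all clusters. Since the genes were chosen for these values, nothing is read from the shares. The median difference between EV replicate 1 and the mean of the other 7 was 5.26 log2 units, beside -0.014 over all clusters. In EV replicate 1, 33 of the 45 genes were above background, against 9 to 12 in each BORA tumour and 9 to 11 in EV replicates 2 to 4. Over all clusters the share above background was 36.3% in EV replicate 1, 38.6% to 44.3% in BORA tumours and 39.5% to 40.9% in EV replicates 2 to 4. Of these 33 genes, 22 were below background in all 7 other tumours, 8 were above it in all of them and 3 in some. Of all 17709 clusters, 9391 were below background in all 7 other tumours. Where other tumours lay below background, folds are given as lower bounds, with every value raised to at least its array's percentile. Raised in this way, 25 genes remained more than 2 log2 units higher and the median difference was 3.01.

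**Figure D1:**
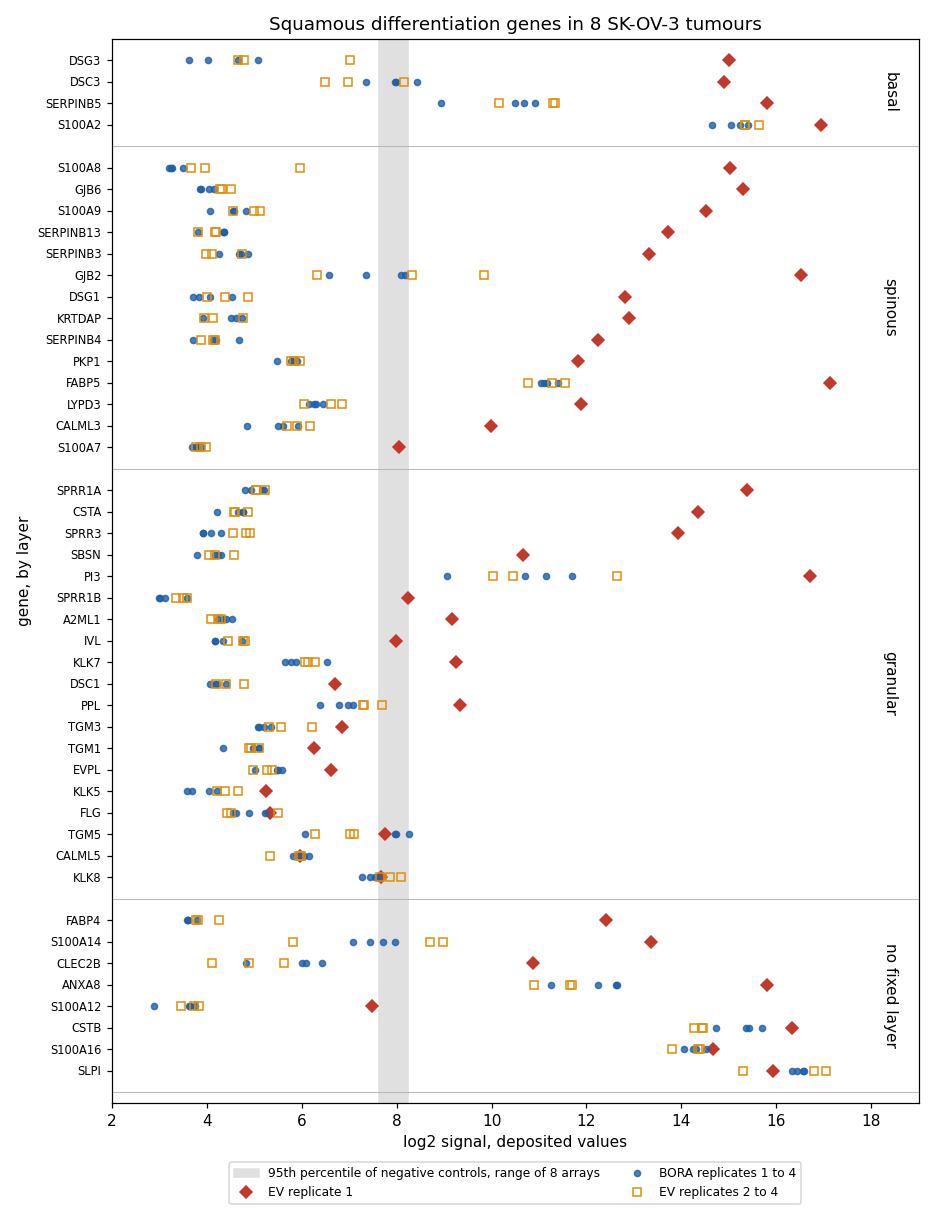
Log2 signal (x axis) of the 45 measured genes (y axis) in each of 8 tumours, sorted within each layer by the difference between EV replicate 1 and the other 7. Red diamonds are EV replicate 1, blue points BORA tumours, open squares EV replicates 2 to 4, and the grey band spans the negative control percentiles of the 8 arrays (7.62 to 8.24). The red diamonds lie to the right of all other points for 40 genes, while many spinous genes and few late granular genes reach far beyond the band.

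The basal layer genes were DSG3, DSC3, SERPINB5 and S100A2. DSG3, the desmosomal cadherin of lower epidermal layers, was at 15.01 in EV replicate 1, against 4.64, 4.03, 3.63 and 5.07 in BORA tumours and 7.01, 4.78 and 4.66 in EV replicates 2 to 4. It was thus above background in 1 tumour of 8, at least 142-fold higher there, and EV replicate 2 was the next in order. DSC3, its partner desmocollin, was at 14.89 in EV replicate 1, against 8.42, 7.99, 7.34 and 7.96 in BORA tumours and 8.16, 6.98 and 6.48 in EV replicates 2 to 4, at least 117-fold higher. SERPINB5, which encodes the serpin maspin, was at 15.80 in EV replicate 1, with a lowest, median and highest value of 8.94, 10.69 and 11.33 in the other 7, a 38.2-fold difference between levels all above background. S100A2, a calcium-binding protein of basal keratinocytes, was at 16.94 in EV replicate 1 and already at 14.65 to 15.64 in the other 7, a difference of 3.25-fold. Expression of S100A2 and SERPINB5 was thus a feature of all 8 tumours, and that of DSG3 of EV replicate 1 alone at this detection limit.

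The spinous genes had a median difference of 8.57 log2 units over 14 measured genes, against 6.26 for the 4 basal genes. With values raised to the negative control percentile this order turned, to 5.24 for spinous and 6.06 for basal genes. All 14 spinous genes were more than 2 log2 units higher in EV replicate 1. S100A8 and S100A9 encode the subunits of calprotectin, which stressed keratinocytes and myeloid cells make. S100A8 was at 15.03 in EV replicate 1, against 3.19, 3.25, 3.26 and 3.50 in BORA tumours and 5.96, 3.66 and 3.95 in EV replicates 2 to 4, at least 144-fold higher. S100A9 was at 14.51 in EV replicate 1, against 4.07, 4.82, 4.58 and 4.55 in BORA tumours and 4.99, 4.55 and 5.11 in EV replicates 2 to 4, at least 100.4-fold higher. Neither gene passed background in any of the other 7 tumours. Of 10 measured leukocyte markers, 1, the macrophage gene CD68, was above background in EV replicate 1, at 10.49, inside the range of the other 7, whose highest value was 11.31. The log2 of their summed level was 10.97 in EV replicate 1, against 11.61 to 12.26 in BORA tumours and 12.66 to 13.21 in EV replicates 2 to 4. That lower sum came from PTPRC (CD45), at 6.91 in EV replicate 1, against 9.68 to 12.94 in the other 7. Without PTPRC, a step chosen after seeing the data, the sum was 10.88 in EV replicate 1, against 10.37 to 11.50 in BORA tumours and 10.64 to 11.09 in EV replicates 2 to 4. The part of leukocytes in these values was not tested. Host leukocytes in these xenografts are mouse cells and the array is of human design. How far its probes read mouse RNA was not tested, so low markers are not read as few leukocytes. The neutrophil and monocyte genes CSF3R, FCGR3B, MPO, CD14 and FCN1 were below background in all 8 tumours. S100A7, the psoriasis-linked protein psoriasin, was at 8.05 in EV replicate 1, just below its percentile, and at 3.69 to 3.98 in the other 7.

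Of the cell contact and surface genes of the spinous layer, GJB6 and GJB2 stood as high in EV replicate 1, while DSG1, PKP1 and LYPD3 were lower. GJB6 and GJB2 encode connexin 30 and connexin 26, gap junction proteins of differentiating keratinocytes. GJB6 was at 15.30 in EV replicate 1, against 4.03, 3.88, 3.86 and 4.16 in BORA tumours and 4.51, 4.32 and 4.28 in EV replicates 2 to 4, at least 173-fold higher. GJB2 was at 16.53 in EV replicate 1, against 6.58, 8.09, 7.36 and 8.18 in BORA tumours and 9.85, 6.32 and 8.33 in EV replicates 2 to 4, at least 307-fold higher. GJB2 was above background in 4 of the other 7 tumours and GJB6 in 0 of them. DSG1, the desmosomal cadherin of upper layers, was at 12.81 in EV replicate 1, with 3.70, 4.07 and 4.87 as the lowest, median and highest of the other 7. PKP1, a plakophilin of the desmosomal plaque, was at 11.82 in EV replicate 1, against 5.47 to 5.96 in the other 7. These correspond to at least 30.8-fold and 15.6-fold. LYPD3, a surface protein of suprabasal keratinocytes, was at 11.89 in EV replicate 1 and at 6.04 to 6.84 in the other 7, at least 16.3-fold higher.

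The measured spinous protease inhibitors of the serpin family were above background in EV replicate 1 alone. SERPINB13 was at 13.73 in EV replicate 1, against a lowest, median and highest value of 3.81, 4.19 and 4.36 in the other 7, at least 58.1-fold higher. SERPINB3 was at 13.32, against 3.97, 4.68 and 4.87, at least 43.9-fold higher. SERPINB4 was at 12.23, against 3.71, 4.12 and 4.68, at least 20.7-fold higher. SERPINB3 and SERPINB4, the squamous cell carcinoma antigens, are near-identical neighbours whose probes may not separate them. KRTDAP, a secreted protein of differentiating keratinocytes, was at 12.89 in EV replicate 1, against 3.91, 4.51 and 4.76, at least 32.5-fold higher. CALML3, a calmodulin-like protein of epithelia, was at 9.98 in EV replicate 1, against 4.85, 5.68 and 6.18, at least 4.33-fold higher. FABP5, the epidermal fatty acid binding protein, was above background everywhere: it was at 17.14 in EV replicate 1 and at 10.76 to 11.56 in the other 7, a 62.1-fold difference.

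The granular layer was uneven. Its 19 measured genes had a median difference of 2.39 log2 units, 11 exceeded 2 log2 units, and 9 were above background in EV replicate 1, against 13 of the 14 spinous genes. With values raised to the negative control percentile the median was 0.37, which is the difference of the percentiles alone, and 5 genes exceeded 2 log2 units. SPRR1A and SPRR3, small proline-rich envelope precursors, and CSTA, given below, were the 3 granular genes with the largest differences. SPRR1A was at 15.38 in EV replicate 1, against 4.81, 5.20, 4.94 and 5.15 in BORA tumours and 5.03, 5.22 and 5.03 in EV replicates 2 to 4, at least 183-fold higher. SPRR3 was at 13.93 in EV replicate 1, against 3.91, 4.08, 3.93 and 4.30 in BORA tumours and 4.82, 4.55 and 4.90 in EV replicates 2 to 4, at least 66.9-fold higher. SPRR1B was at 8.25, at the edge of detection, against 2.98 to 3.58 in the other 7. Involucrin (IVL), the scaffold on which the envelope forms, was at 7.98 in EV replicate 1, below its percentile, against 4.16 to 4.80 in the other 7. FLG, the precursor of the keratin-aggregating protein filaggrin, was at 5.34 in EV replicate 1, inside the range of the other 7 (4.43 to 5.51). The plakin genes differed: PPL (periplakin) was at 9.34 in EV replicate 1, against 6.37 to 7.70 in the other 7, and EVPL (envoplakin) was at 6.61, below background, against 4.96 to 5.57.

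The listed enzymes of cross-linking and shedding were dim, and none of these 6 was above 9.25 in any tumour. The transglutaminases TGM3, TGM1 and TGM5 were at 6.85, 6.25 and 7.75 in EV replicate 1, all below its percentile. In the other 7 tumours TGM3 was at 5.08 to 6.21 and TGM1 at 4.34 to 5.11. TGM5 was at 6.06, 7.99, 8.26 and 7.95 in BORA tumours and at 6.28, 7.01 and 7.10 in EV replicates 2 to 4, so EV replicate 1 lay inside the BORA range. TGM5 was above background in BORA replicates 2 and 3 alone. KLK7, the chymotrypsin-like kallikrein of the stratum corneum, was at 9.25 in EV replicate 1, against 5.64 to 6.53 in the other 7, at least 2.61-fold higher. KLK5, its trypsin-like activator, was at 5.25 in EV replicate 1, against 3.58 to 4.64, and KLK8 was at 7.68, inside the range of the other 7 (7.26 to 8.08). CALML5, a calmodulin-like protein of late keratinocyte differentiation, was at 5.96 in EV replicate 1, against 5.33 to 6.15, likewise inside. DSC1, the desmocollin of the uppermost living layers, was at 6.70 in EV replicate 1, below background, against 4.07 to 4.78.

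The inhibitors and secreted proteins of the granular layer were detected. CSTA, the cystatin A of the cornified envelope, was at 14.35 in EV replicate 1, against 4.77, 4.21, 4.65 and 4.76 in BORA tumours and 4.57, 4.58 and 4.87 in EV replicates 2 to 4, at least 89.6-fold higher. SBSN (suprabasin) was at 10.67, against 3.79 to 4.57 in the other 7, at least 6.98-fold higher, and the protease inhibitor A2ML1 was at 9.17, against 4.09 to 4.53, at least 2.48-fold higher. PI3, the elastase inhibitor elafin, was at 16.70 in EV replicate 1, against 9.05, 10.71, 11.70 and 11.15 in BORA tumours and 12.65, 10.45 and 10.04 in EV replicates 2 to 4. PI3 was thus above background in all 8 tumours and 59.1-fold higher in EV replicate 1.

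Of the 8 genes with no fixed layer, 4 were above background in all 8 tumours, FABP4 and CLEC2B in EV replicate 1 alone, S100A14 there and in 3 others, and S100A12 in 0. SLPI, a secreted leukocyte protease inhibitor made by many epithelia, was the 1 gene of the 45 with a lower value in EV replicate 1 than the mean of the other 7: it was at 15.93 there, against 16.34, 16.43, 16.56 and 16.60 in BORA tumours and 16.80, 17.05 and 15.30 in EV replicates 2 to 4. CSTB (cystatin B) was at 16.32 in EV replicate 1, against 14.73, 15.42, 15.70 and 15.36 in BORA tumours and 14.27, 14.46 and 14.43 in EV replicates 2 to 4. S100A16 was at 14.66 in EV replicate 1, against 13.81 to 14.53 in the other 7, and ANXA8, an annexin, was at 15.80, against 10.90 to 12.64. These 4 genes were above background in all 8 tumours. S100A14, an epithelial S100 protein, was at 13.36 in EV replicate 1, against 7.08, 7.71, 7.44 and 7.96 in BORA tumours and 8.71, 8.97 and 5.81 in EV replicates 2 to 4, at least 37.6-fold higher. FABP4, a fatty acid binding protein best known from adipocytes and capillary endothelium, was at 12.41 in EV replicate 1, against 3.61, 3.61, 3.79 and 3.58 in BORA tumours and 4.25, 3.82 and 3.78 in EV replicates 2 to 4, at least 23.3-fold higher. All 6 adipocyte markers examined, ADIPOQ, PLIN1 and LEP among them, were below background in EV replicate 1, and the log2 of their summed level was 7.59 there, against 8.16 to 8.83 in BORA tumours and 8.23 to 8.75 in EV replicates 2 to 4. That lower sum came from PPARG, at 5.89 in EV replicate 1, against 7.32 to 8.43 in the other 7. The other 5 markers were higher in EV replicate 1 than the mean of the other 7, and their sum, taken after seeing the data, was 7.06 there, against 6.67 to 6.98 in BORA tumours and 6.97 to 7.07 in EV replicates 2 to 4. Host fat cells are likewise mouse cells, so low markers are not read as few adipocytes. CLEC2B, a lectin known from leukocytes, was at 10.87 in EV replicate 1, against 4.82, 6.43, 5.99 and 6.09 in BORA tumours and 5.63, 4.11 and 4.88 in EV replicates 2 to 4, at least 8.03-fold higher. S100A12, a calgranulin of myeloid cells, was at 7.48, below background, against 2.88 to 3.84.

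**Figure D2:**
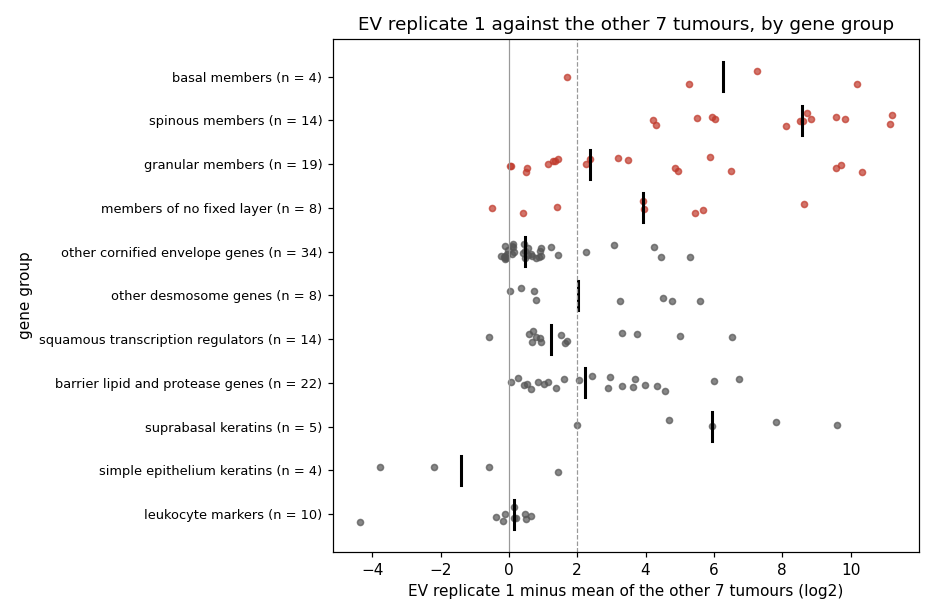
Difference in log2 signal between EV replicate 1 and the mean of the other 7 tumours (x axis) for each gene, by gene group (y axis), with red points for the listed genes, grey points for other lists and black bars for medians. The dashed line marks 2 log2 units; the spinous median lies at 8.57, the granular at 2.39, and the other cornified envelope genes at 0.47.

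Genes of the same programmes outside the list differed by group. Their lists were chosen with earlier results of these data known, so they give the listed genes no independent support. The median difference of EV replicate 1 was 5.94 log2 units for suprabasal keratins, beside 5.26 for the listed genes. It was 2.23 for barrier lipid and protease genes, 2.03 for other desmosome genes, 1.24 for squamous transcription regulators and 0.47 for other cornified envelope genes. All squamous keratins measured were highest in EV replicate 1. KRT14, the keratin of basal cells, was at 15.44 there, against 7.42 to 9.68 in the other 7, and its partner KRT5 was at 17.48, against 12.78 to 15.00. Of the suprabasal keratins, KRT1 was at 14.15, against 4.20 to 4.95, KRT13, the keratin of mucosal surfaces, at 12.34, against 4.12 to 5.01, and KRT10 at 9.84, against 3.61 to 4.44. The keratins of activated epidermis KRT6C and KRT16 were at 16.12 and 14.36, against 7.42 to 9.65 and 9.10 to 10.24. Of 4 keratins of simple epithelium, KRT7, KRT18 and KRT8 had their lowest value of the 8 tumours in EV replicate 1. KRT7 was at 10.01 there, against 12.85 to 15.76, KRT18 at 10.17, against 11.64 to 13.41, and KRT8 at 15.36, against 15.48 to 16.70, while KRT19 was at 17.71, against 15.35 to 17.50.

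Among 8 other desmosome genes, 4 were more than 2 log2 units higher in EV replicate 1. DSC2 was at 16.56, against 10.38 to 11.56 in the other 7, the tetraspan protein gene PERP at 17.30, against 11.97 to 12.92, and JUP (plakoglobin) at 15.88, against 10.84 to 12.11. All 3 were above background in every tumour. Among 14 squamous transcription regulators, 4 exceeded 2 log2 units. The differentiation regulator ZNF750 was at 9.93, against 3.19 to 3.50, GRHL3 at 8.89, against 3.56 to 4.21, and GRHL1 at 8.97, against 4.13 to 6.29. Among 22 barrier lipid and protease genes, 12 exceeded 2 log2 units, where 2.04% of all clusters did, and 7 were above background in EV replicate 1. SPINK7 was at 9.92, against 2.81 to 3.41, KLK13 at 12.69, against 5.44 to 8.74, and CYP4F22 at 7.68, below background, against 2.92 to 3.36. With values raised to the negative control percentile, 4 desmosome genes, 1 transcription regulator and 3 barrier genes stayed past 2 log2 units. Over these 3 lists of 8, 14 and 22 genes, limma called 0 lower and 1 higher in BORA tumours than in EV replicates 2 to 4. The 1 was DMKN, which is given below. Over all clusters 0.0791% were called lower and 0.435% higher.

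The other cornified envelope genes divided sharply. Of 34 measured, 5 were more than 2 log2 units higher in EV replicate 1. Of these, 4 belonged to the SPRR2 family, whose near-identical copies the probes may not separate. With values raised to the negative control percentile 2 remained, SPRR2E and SPRR2D. SPRR2E was at 10.47, against 5.59 to 6.60 in the other 7, SPRR2D at 9.89, against 4.16 to 5.22, and SPRR2A at 8.88, against 4.41 to 5.12. Loricrin (LORICRIN), the main protein of the mature epidermal envelope, was at 5.02 in EV replicate 1, inside the range of the other 7 (4.65 to 5.06). Of 18 late cornified envelope (LCE) genes 0 exceeded 2 log2 units, and their median difference was 0.12. LCE1E and LCE1C, chosen after their values were seen, were above background in all 8 tumours, at 14.20 and 11.94 in EV replicate 1, against 13.45 to 13.92 and 11.12 to 11.81 in the other 7.

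Most of these genes lie beside each other on chromosomes. Of the 45 genes, 29 fell in 7 runs of neighbouring genes, which were bounded by named genes after the values were seen. The epidermal differentiation complex of chromosome 1, taken from S100A10 to S100A1, held 62 measured genes, 12 of them on the list. In EV replicate 1, 15 of the 62 were more than 2 log2 units higher, 9 on the list and 6 beside it, where 2.04% of all clusters were. Differences in these runs are given without raising values to the negative control percentile. IVL (7.98), S100A12 (7.48), S100A7 (8.05), SPRR2B (7.79), RPTN (6.08) and PGLYRP3 (5.80) were below background in EV replicate 1 itself. Most high genes lay in 2 stretches. The first ran from IVL through the SPRR genes (10.32 for SPRR1A, 9.57 for SPRR3 and 5.29 for SPRR2D). It also held SPRR4 (0.94), SPRR2F (0.78) and SPRR2G (0.47), each under 1 log2 unit. The second held S100A9 (9.85), S100A12 (3.92), S100A8 (11.20) and S100A7 (4.23). The LCE genes and FLG (0.52) before IVL and LORICRIN (0.15) between the 2 stretches, were each under 1 log2 unit. PGLYRP3 (2.68) and RPTN (2.26) were the other 2 genes past 2 log2 units. Beyond S100A7, S100A4 and S100A13 were lower in EV replicate 1, by -2.31 and -2.31 log2 units, while S100A14, next to S100A13, was higher by 5.69.

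The desmosomal cadherin cluster of chromosome 18 held 7 measured genes, of which DSC3, DSC2, DSC1, DSG1 and DSG3 were more than 2 log2 units higher, while DSG4 (0.35) and DSG2 (0.72) were not. In the clade B serpin cluster of the same chromosome, 6 of 10 genes exceeded 2 log2 units, including SERPINB12 (4.84) and SERPINB7 (3.84) outside the list. DSC1 and SERPINB7 were below background in EV replicate 1, at 6.70 and 8.10. Among 15 kallikrein genes of chromosome 19, 5 did so. KLK13 (5.99), KLK10 (4.33), KLK6 (3.62), KLK7 (3.21) and KLK11 (2.97) exceeded it, and KLK8 (0.05) and KLK5 (1.14) did not. With values raised to the negative control percentile, KLK13 and KLK10 stayed past 2 log2 units, at 4.71 and 2.09. KLK7, KLK11 and KLK6 were then at 1.39, 1.03 and 0.69. DMKN, between KRTDAP and SBSN, was higher by 3.31. On chromosome 20 the related inhibitor genes PI3 and SLPI differed by 5.88 and -0.51, with SEMG1 (-0.12) and SEMG2 (0.22) between them. High genes thus had neighbours without the difference in each of the larger runs.

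**Figure D3:**
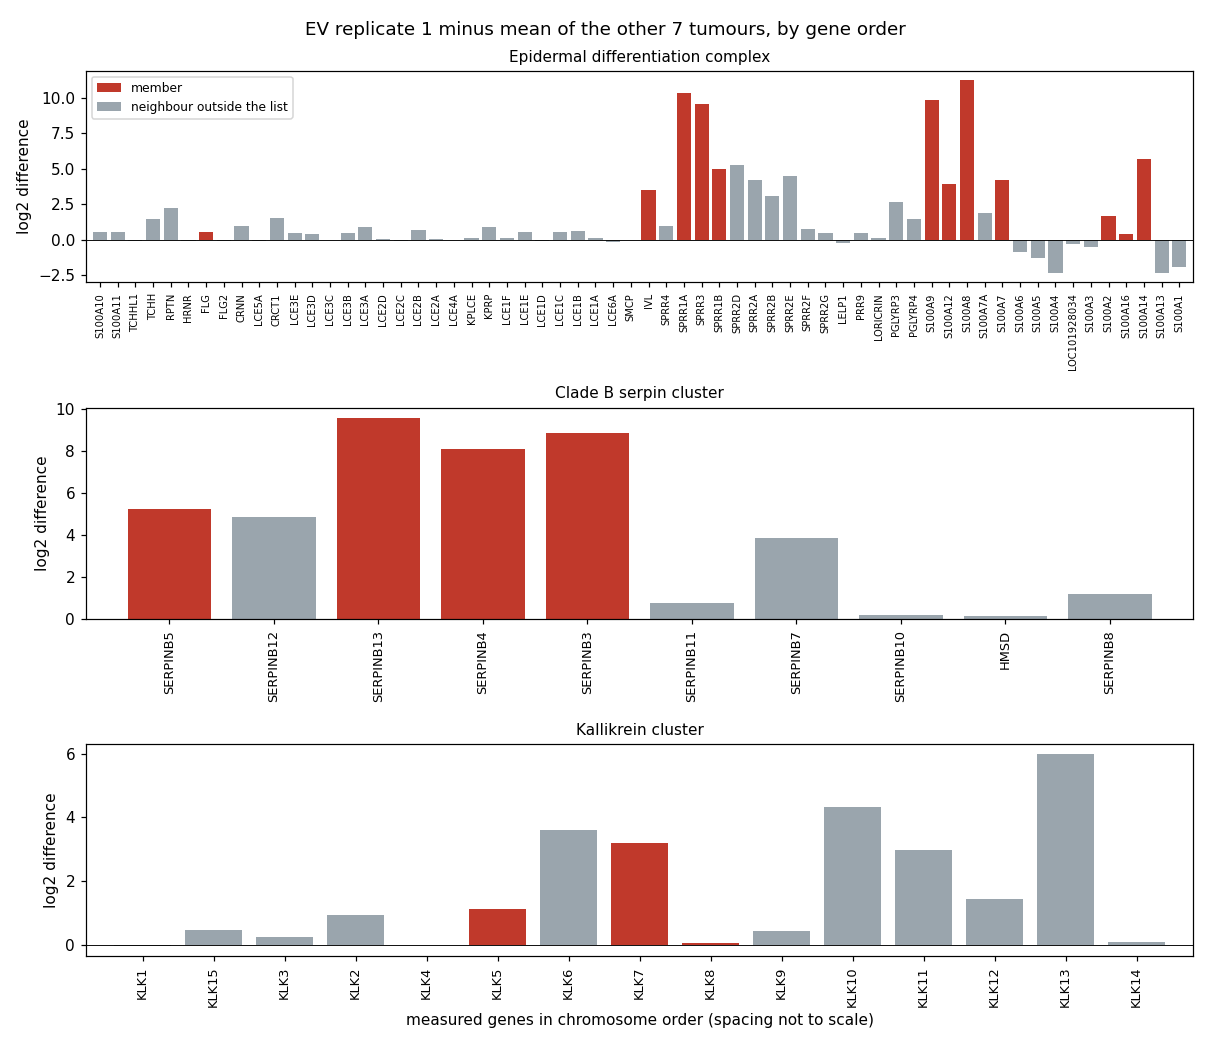
Difference in log2 signal between EV replicate 1 and the mean of the other 7 tumours (y axis) for measured genes in chromosome order (x axis, not to scale) in the epidermal differentiation complex, the clade B serpin cluster and the kallikrein cluster. Red bars are listed genes and grey bars their neighbours. Most SPRR genes and the S100A8 to S100A9 stretch stand up on either side of LORICRIN, which lies near 0 like the LCE genes before them.

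Promoters of some envelope genes in the epidermal differentiation complex, all with an AP-1 match, are shown because these neighbours gave such different values. RefSeq (GRCh38.p14) sequences of the 250 bases before the start of the gene were found for 36 of the 48 genes. The AP-1 motif TGAGTCA, bound by Fos and Jun factors and known from keratinocyte genes, was searched on both strands (TGACTCA on the other). It was found in 8 of the 36 (IVL, SPRR1A, SPRR1B, SPRR3, S100A2, SERPINB13, KRTDAP and SBSN), a share of 22.2%, where 4.16% of all 27305 promoters of this length held it. TATAAA, on either strand, was found in 11 of 36, against 11.1% of all promoters, and the grainyhead-like motif AACNNGTT in 3 of 36, against 2.97%; no motif of these 3 contains another. The sequences run 5′ to 3′ on the plus strand, with the AP-1 letters in capitals. They end just before the gene start, and the first capital lies 108 bases before the start in SPRR1A, 170 in SPRR3, 141 in SPRR1B, 123 in IVL and 48 in LORICRIN.
SPRR1A, chr1:152983831-152984080: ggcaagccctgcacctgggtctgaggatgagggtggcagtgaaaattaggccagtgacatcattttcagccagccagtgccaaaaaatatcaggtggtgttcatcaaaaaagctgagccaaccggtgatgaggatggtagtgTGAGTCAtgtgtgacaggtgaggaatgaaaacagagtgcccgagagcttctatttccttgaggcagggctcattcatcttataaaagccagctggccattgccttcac
SPRR3, chr1:153001499-153001748: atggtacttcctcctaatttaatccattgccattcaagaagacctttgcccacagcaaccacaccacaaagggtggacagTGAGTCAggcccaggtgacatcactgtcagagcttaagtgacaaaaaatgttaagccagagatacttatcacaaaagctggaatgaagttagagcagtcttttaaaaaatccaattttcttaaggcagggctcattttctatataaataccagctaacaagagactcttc
SPRR1B, chr1:153030953-153031202: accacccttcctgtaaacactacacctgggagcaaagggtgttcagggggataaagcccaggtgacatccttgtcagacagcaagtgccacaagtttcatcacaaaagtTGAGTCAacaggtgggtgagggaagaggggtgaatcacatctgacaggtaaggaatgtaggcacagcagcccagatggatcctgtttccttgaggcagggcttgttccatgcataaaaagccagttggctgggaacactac
IVL, chr1:152908296-152908545: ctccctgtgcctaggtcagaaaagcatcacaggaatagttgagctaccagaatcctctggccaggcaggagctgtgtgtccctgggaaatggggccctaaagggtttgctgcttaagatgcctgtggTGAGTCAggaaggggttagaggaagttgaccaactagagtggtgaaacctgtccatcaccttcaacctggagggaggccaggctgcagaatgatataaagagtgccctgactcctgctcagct
LORICRIN, chr1:153259437-153259686: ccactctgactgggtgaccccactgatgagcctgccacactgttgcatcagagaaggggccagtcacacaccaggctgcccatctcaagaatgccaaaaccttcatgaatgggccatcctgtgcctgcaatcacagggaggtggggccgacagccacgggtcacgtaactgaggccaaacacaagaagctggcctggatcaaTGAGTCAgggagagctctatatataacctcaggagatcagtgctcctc
All 5 shown hold 1 match, and their differences between EV replicate 1 and the other 7 tumours were 10.32 for SPRR1A, 9.57 for SPRR3, 4.95 for SPRR1B, 3.49 for IVL and 0.15 for LORICRIN. Genes of the complex without a match are not shown. Among them, FLG (0.52) held 0 AP-1 matches, and S100A8 (11.2) held 0 matches to any motif searched. A match is a description of these letters, and no binding was measured.

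Between the other 7 tumours the same genes varied far less. The same difference was taken for each of these tumours against the mean of the remaining 6. No listed gene exceeded 2 log2 units in any BORA tumour or in EV replicates 3 and 4, and 4 did so in EV replicate 2, where 0.0791% of all clusters did. Over all clusters the share was 0.0678%, 0.0678%, 0.0847% and 0.0282% in BORA tumours and 0.175% and 0.0791% in EV replicates 3 and 4. These were DSG3 (2.54), S100A8 (2.50), GJB2 (2.37) and PI3 (2.14). DSG3 and S100A8 were below background in EV replicate 2 all the same, at 7.01 and 5.96, while GJB2 (9.85) and PI3 (12.65) were above it. EV replicate 2 was the highest of the 7 for these 4 genes. Its median over the 45 genes, 5.31, was also the highest, against 5.22 at most in BORA tumours and 5.11 at most in EV replicates 3 and 4. Its count of listed genes above background, 11, lay within the 9 to 12 of the other 6, and it was the highest of the 7 at 9 genes, against 11 and 12 genes in EV replicates 3 and 4 and 2 to 4 in each BORA tumour.

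The second comparison asks whether BORA changed these genes, with EV replicate 1 left out. In limma, 0 of the 45 genes rose and 0 fell at an adjusted p under 0.05, where 0.435% of all 17709 clusters rose and 0.0791% fell. At an unadjusted p under 0.05, 3 genes were higher and 7 lower in BORA tumours, beside 7.7% and 7.62% of all clusters. With all 4 EV tumours, 0 rose and 0 fell as well, beside 0.102% and 0% of all clusters. The median difference, BORA minus EV replicates 2 to 4, was -0.20 log2 units over the 45 genes and -0.029 over all clusters. Including EV replicate 1 moved the first to -1.47, so that tumour sets the value. Of the 45 differences 30 were below 0, but 32 of the genes were below background in all 7 tumours, and dim clusters were lower in BORA arrays in general. Among all 9391 clusters that never passed background in these 7 tumours, 68.0% were lower in BORA tumours, and 53.1% after quantile normalization. Among the 32 listed genes the shares were 71.9% and 59.4%. An exact permutation test of 4 against 3 tumours cannot go below p = 0.0571 and was not used.

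**Figure D4:**
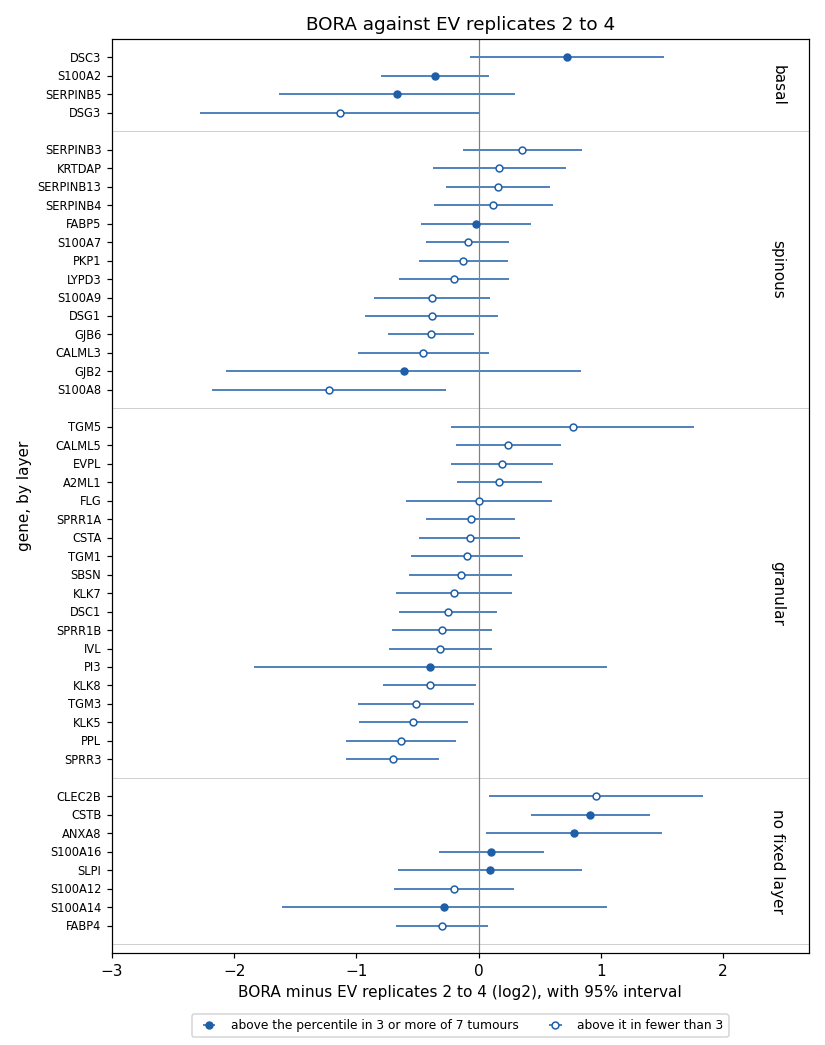
Difference in log2 signal between BORA tumours (n = 4) and EV replicates 2 to 4 (n = 3) for each gene (x axis) by layer (y axis), with limma's 95% interval as bars. Filled points are genes above background in at least 3 of the 7 tumours; 30 of the 45 points lie below 0 and none passed the adjusted threshold.

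CSTB, the cytosolic cathepsin inhibitor, had the smallest adjusted p. It averaged 15.30 ± 0.41 in BORA tumours (SD, n = 4) and 14.39 ± 0.10 in EV replicates 2 to 4 (SD, n = 3), a log2 difference of 0.91 (SE 0.22, limma adjusted p = 0.100). The 4 BORA tumours all lay above the 3 EV tumours, and CSTB was the 1 listed gene of which this was true, beside 6.66% of all clusters. It was past the threshold without BORA replicate 1 (1.11, limma adjusted p = 0.0388). CSTB was higher still in EV replicate 1, at 16.32, so with all 4 EV tumours the log2 difference was 0.43 (limma adjusted p = 0.665).

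All BORA tumours lay below EV replicates 2 to 4 at 5 genes, SPRR3, PPL, S100A8, GJB6 and KLK8, beside 7.68% of all clusters. SPRR3 averaged 4.05 ± 0.18 in BORA tumours (SD, n = 4) and 4.76 ± 0.19 in EV replicates 2 to 4 (SD, n = 3), a log2 difference of -0.70 (SE 0.17, limma adjusted p = 0.105). PPL averaged 6.80 ± 0.31 in BORA tumours (n = 4) and 7.43 ± 0.23 in EV replicates 2 to 4 (n = 3), a log2 difference of -0.63 (SE 0.20, limma adjusted p = 0.188). S100A8 was at -1.22 (SE 0.44, limma adjusted p = 0.224), and at -0.50 without EV replicate 2. GJB6 was at -0.39 (SE 0.16) and KLK8 at -0.40 (SE 0.17), with limma adjusted p of 0.285 and 0.303. SPRR3, PPL, S100A8 and GJB6 lay below background in all 7 tumours and KLK8 in 6 of 7, so these differences are between dim signals.

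Genes above background in several of these tumours had intervals of unequal width. S100A14 was at -0.28 (95% interval -1.61 to 1.05), with EV values spread between 5.81 and 8.97, and without EV replicate 4, the lowest, it fell by 1.29 on the log2 scale (limma adjusted p = 0.0439). GJB2 was at -0.61 (-2.06 to 0.84) and PI3 at -0.39 (-1.84 to 1.05). FABP5 at -0.02 (-0.47 to 0.43), S100A16 at 0.10 (-0.33 to 0.53) and S100A2 at -0.36 (-0.80 to 0.09) had narrower ones. ANXA8, above background throughout, and CLEC2B, below it in all 7, were at 0.78 and 0.96 (limma adjusted p = 0.292 and 0.285), and with all 4 EV tumours at -0.32 and -0.54. TGM3 and KLK5, both below background throughout, were at -0.51 and -0.53 (limma adjusted p = 0.292 and 0.245).

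Outside the list, DMKN and PTPRC passed in limma. DMKN, which encodes the keratinocyte protein dermokine, averaged 6.06 ± 0.31 in BORA tumours (SD, n = 4) and 4.92 ± 0.27 in EV replicates 2 to 4 (SD, n = 3), both below background, a log2 difference of 1.14 (SE 0.21, limma adjusted p = 0.0497). Its neighbours KRTDAP and SBSN were at 0.17 and -0.14 and did not pass. DMKN lost the call without any 1 of BORA replicates 1 to 4 or EV replicates 2 and 3, after median centring (limma adjusted p = 0.0622) and with the replicate block (limma adjusted p = 0.119). It was at 0.15 with all 4 EV tumours. PTPRC, the gene of the leukocyte phosphatase CD45, averaged 10.39 ± 0.61 in BORA tumours and 12.46 ± 0.42 in EV replicates 2 to 4 (-2.07, SE 0.31, limma adjusted p = 0.0194) and was at 6.91, below background, in EV replicate 1. It lost the call without BORA replicate 2 or 4, and with all 4 EV tumours it was at -0.68 (limma adjusted p = 0.803). PTPRC was the 1 leukocyte marker of 10 measured that fell. Of the 10 differences 8 were below 0, but 8 of the genes never passed background in these 7 tumours. CD68, above background in all 7, was at 0.38 (limma adjusted p = 0.563). Host leukocytes are mouse cells, and whether the fall in PTPRC reflects leukocytes was not tested. KRT14 was at 1.35 (SE 0.31, limma adjusted p = 0.0915) and did not pass.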

How the data were processed

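Total RNA of 8 tumours (4 BORA, 4 EV, from the sample labels) was biotin-labelled and hybridised to 1 Affymetrix array each. The deposited table holds 1 value per cluster and array, read as log2 because all values lie in a log2 range and the labels leave the base unstated. The submitters' processing notes name Affymetrix Expression Console for the deposited values. For version, background correction, normalization and build, the entry is "not given in the sources used here". While the series' text names the Gene 1.0 ST array, the identifiers belong to another Affymetrix human design.

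Of 24351 rows, 17709 clusters had 1 gene symbol in the supplied annotation and 0 had several; 612 rows were negative controls. The brightest cluster stood for each symbol (20 symbols had more than 1). No further normalization or filter was applied. All clusters were fitted with limma 3.58.1 in R 4.3.3 (lmFit, eBayes, Benjamini-Hochberg), BORA minus EV replicates 2 to 4. The limma fit of BORA tumours against EV replicates 2 to 4 was tested on simulated data. Labels give no scan date, so no batch was tested. Precision is limited by how few arrays there are.

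The 48 genes, their layers and the 11 other lists (124 entries) were chosen with earlier results of these data known. Values in every tumour, or their range, were printed for the 3 genes of each role with the largest difference in EV replicate 1, for genes past the threshold or not highest there, and for the 3 leading genes of each other list. Gene order came from the GRCh38.p14 RefSeq gene table.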

Additional observations from a re-analysis of the deposited data

Results flagged for a closer look

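In 90 sets of 4 tumours (45 genes in each of the 2 groups), the gap between an extreme tumour and its nearest neighbour was set against the range of its group. It was beyond Dixon's 95% critical value for 4 samples in 31 sets. EV replicate 1 was the high tumour in 25 of them. Since the genes had been selected on that tumour, these 25 ratios describe the selection and test nothing. Among spinous genes the ratio was 0.961 for SERPINB13, 0.919 for SERPINB3, 0.963 for SERPINB4, 0.968 for PKP1, 0.902 for DSG1, 0.98 for GJB6, 0.908 for KRTDAP, 0.863 for LYPD3, 0.884 for CALML3, 0.875 for FABP5, 0.949 for S100A7 and 0.944 for S100A9. Among granular genes it was 0.901 for IVL, 0.981 for SPRR1A, 0.954 for SPRR1B, 0.962 for SPRR3, 0.97 for CSTA, 0.841 for TGM1, 0.936 for KLK7, 0.957 for A2ML1 and 0.922 for SBSN. Among genes with no fixed layer it was 0.909 for CSTB, 0.904 for S100A12, 0.839 for ANXA8 and 0.946 for FABP4. The other 6 ratios concerned genes that were below background in the whole group in question, except TGM5, which was above it in 2 BORA tumours. Chance gives such a ratio in about 1 in 20 sets. CALML5 was low in EV replicate 3 (0.937). In BORA tumours, SERPINB13 (0.95), TGM5 (0.861) and S100A12 (0.86) were low in replicate 1, EVPL was low in replicate 2 (0.8293) and FABP4 was high in replicate 3 (0.866).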

How the results depend on the processing

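The absence of calls among the 45 genes in BORA tumours held under quantile normalization, median centring, removal of dim clusters, an intensity trend with robust fitting, cluster means, all 8 arrays and a replicate block. Leaving out 1 tumour at a time gave 0 to 1 genes higher (CSTB without BORA replicate 1) and 0 to 1 lower (S100A14 without EV replicate 4). The median difference in BORA was -1.47 with all 8 arrays and -0.020 with dim clusters left out, which kept 11 of the genes. With all 8 arrays ANXA8 turned to -0.32 and CLEC2B to -0.54, because EV replicate 1 was the highest tumour for both. Over all clusters, 77 were higher and 14 lower. The higher count was 46 after centring, 18 with all 8 arrays and 24 to 106 with 1 tumour left out. The lower count was 28 with the trend, 5 with the replicate block, 0 with all 8 arrays and 1 to 46 with 1 tumour left out. Same-numbered tumours correlated at 0.072, 0.057 and 0.085 in their deviations from group means, so the numbers were not taken as pairs. The replicate block gave 0 calls among the genes, a smallest adjusted p of 0.0530 in limma (CSTB) and a median difference of -0.12.

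The median difference of EV replicate 1 was 4.97 against EV replicates 2 to 4 alone, where the spinous median was 8.38, and 4.99 to 5.38 with 1 other tumour left out. With values raised to the negative control percentile, a step chosen after seeing the data, it was 3.01, with 6.06 for basal, 5.24 for spinous, 0.37 for granular and 2.21 for unlayered genes. The count past 2 log2 units was 33 with any 1 tumour left out. Signals below the negative control percentile bound what can be said of 32 genes in the 7 other tumours, and most granular genes are among them.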
